A study of Mus musculus with 6 samples.

Results

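The 9 genes described here are genes of resting astrocytes: the water channel Aqp4, the gap junction genes Gja1 and Gjb6, the endfoot anchor Dag1, the metabolic enzymes Glul, Aldh1l1 and Aldoc, the bicarbonate transporter Slc4a4 and the transcription factor Sox9. They were listed by name, and no level or fold change enters the rule that lists them. All 9 were found among the 52550 genes listed for each library and among the 18795 genes that passed the filter on low counts. Hippocampal RNA was sequenced from 3 sham mice (Sham1 to Sham3) and 3 mice with traumatic brain injury (TBI1 to TBI3), all male animals aged 8 to 10 weeks and killed 24 h after surgery. The strain is C57BL / 6 in the labels and C57B6/J in the methods of the study. The TBI group received a controlled cortical impact over the right parietal bone, and the sham group had the same anaesthesia and craniotomy without the impact, so the opening of the skull was common to both groups. Per the study, the whole hippocampus was examined, and the tissue was exposed on both sides of the brain.

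Astrocytes wrap the vessels of the brain with endfeet, in which Aqp4 lets water pass through the membrane and the dystroglycan encoded by Dag1 ties the cell to the basal lamina. Gap junctions made of connexins join astrocytes into a network that shares ions and metabolites, and Glul turns the glutamate taken up at synapses into glutamine. In injured brain, astrocytes are known to become reactive, with more of the filament proteins Gfap and Vim, and resting-state genes are often followed beside them.

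The total of the deposited values was 31630936 to 41771872 per library, and levels are given as CPM, each count in proportion to its library total, after scaling by TMM, a method that evens out library composition. Markers of other cells and regions set 3 libraries apart. In the library labelled Sham2, 19 of 20 reactive astrocyte genes had their highest value of the 6 libraries, and their summed level was 5894 CPM against 799 and 819 CPM in Sham1 and Sham3 and 729.7 to 1990.0 CPM in the TBI group. Gfap there stood at 6.46 times the mean of Sham1 and Sham3, so this library went against its label in these genes. In the same library, 8 of 8 oligodendrocyte markers, 6 of 6 ependymal markers and 5 of 6 choroid plexus markers had their lowest value. In TBI1, 7 of 7 striatum markers were highest, with a summed level of 3736 CPM against 133 to 190.5 CPM in the other libraries, and 7 of 8 hippocampus markers were lowest. In TBI3, 7 of 7 cerebellum markers were highest, at 2557 CPM against 157 to 257 CPM. The 8 hippocampus markers summed to 1032, 867 and 798 CPM in the sham libraries and 444, 693 and 524 CPM in the TBI libraries, so every TBI library lay below every sham library. Their median log2 fold change was -1.01, and -0.55 without TBI1. At an unadjusted p under 0.05 were 0 of the 8, against 4.29% of all tested genes. The groups did not overlap for 3 of the 8, against 10.2% of all tested genes. The 10 neuron markers summed to 6908 to 7247 CPM in sham and 6426 to 6626 CPM in TBI, but 5 of the 10 were higher and 5 lower, with a median log2 fold change of 0.019. The groups did not overlap for 1 of the 10, a share near the 10.2% of all tested genes. It was Slc17a7, at 1662, 1810.3 and 1253 CPM in sham and 693, 1199 and 837 CPM in TBI. Microglia markers summed to 311 to 362 CPM in sham and to 577, 388 and 308 CPM in TBI1, TBI2 and TBI3. Of these 8 markers 7 were highest in TBI1, and their median log2 fold change was 0.31, and 0.013 without TBI1. The part of these differences in the results below was not tested. Results are therefore also given without the library labelled Sham2. In bulk tissue, fewer astrocytes and less RNA per astrocyte cannot be told apart.

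No difference between the TBI and sham groups was detected for any of the 9 genes. With edgeR's quasi-likelihood test, a call needed an unadjusted p below 0.05, an adjusted p below 0.1 and a change of more than 1.5-fold in either direction. By this rule 0 of 9 genes were called, and the share of all tested genes called was 0%. At an unadjusted p under 0.05 the count was also 0 of 9, against 4.29% of all tested genes (2.16% higher and 2.13% lower in TBI), and DESeq2 with its defaults called 0 of the 9 and 0.163% of all genes. Each of the 9 genes had overlapping groups, whereas the CPM of the groups did not overlap in 10.2% of all tested genes (4.77% higher and 5.45% lower in TBI). Of the 9 genes, 6 had a positive and 3 a negative log2 fold change, with a median of 0.25 on the log2 scale against 0.0091 for all tested genes. The adjusted p values (Benjamini-Hochberg, over all tested genes) lay between 0.982 and 0.992. The spread within groups was wide: the median SD of log2 CPM within groups was 0.576 for the 9 genes and 0.320 for all tested genes. The depth was not low for these genes, since the smallest count was 739 (Sox9 in TBI3). With 3 libraries against 3, exact permutation of the labels gives any 1 gene a two-sided p of at least 0.1.

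**Figure D1:**
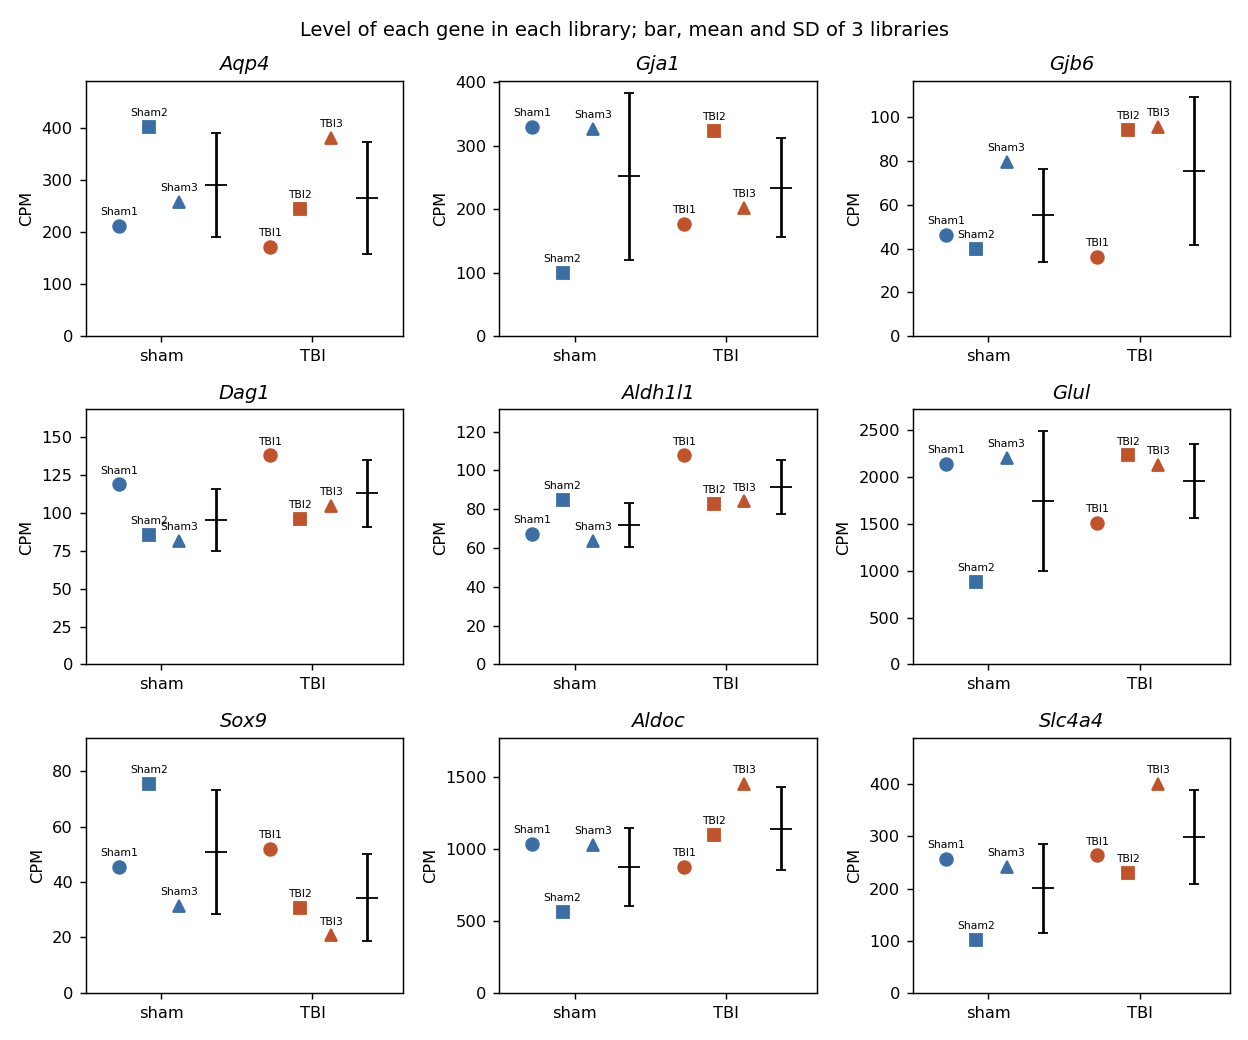
Level of each of the 9 genes in each library, in CPM on the vertical axis, with sham in blue and TBI in orange. Points are libraries, and the black bars are the mean and SD of 3 libraries. The groups overlap in all 9 panels, and the library labelled Sham2 is the lowest point for Gja1, Glul, Aldoc and Slc4a4 and the highest for Aqp4 and Sox9.

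Aqp4, the water channel of the endfoot, lies on chr18:15389496-15410982 (GRCm38, minus strand). Its level was 211, 401 and 257 CPM in Sham1, the library labelled Sham2 and Sham3, and 170, 244 and 381 CPM in TBI1, TBI2 and TBI3. The highest value was in a sham library and the lowest in a TBI library, but TBI3 came close to the highest, so the groups overlapped over most of their range. The sham mean was 289.9 ± 99.0 CPM and the TBI mean 265 ± 107 CPM (SD, n = 3 each). This gave a log2 fold change of -0.13 (SE 0.35, 95% interval -0.97 to 0.71). Its sign turned without the library labelled Sham2, to 0.18, and without TBI1, to 0.11, and it was -0.49 without TBI3. The interval allows a fold change between 0.512 and 1.63, so a moderate difference in either direction could not be detected with these libraries.

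Dag1 encodes dystroglycan, the receptor for laminin that anchors the endfoot and the complex to which Aqp4 is bound (chr9:108204634-108263958, minus strand). Its level was 119, 85.2 and 81.5 CPM in Sham1, the library labelled Sham2 and Sham3, and 138, 96.1 and 105 CPM in the TBI libraries in order. TBI1 was the highest and Sham3 the lowest, and Sham1 lay above TBI2 and TBI3. Dag1 varied little, with the highest library 1.69 times the lowest, and its log2 fold change was 0.25 (SE 0.21, 95% interval -0.24 to 0.74). It was 0.17 without the library labelled Sham2, 0.077 without TBI1, its highest library, and 0.44 without Sham1. Dag1 and Aldh1l1 were the 2 genes whose SD within groups was below that of most tested genes, at percentiles 44.6 and 32.2 of all tested genes.

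Gja1, the main connexin of astrocyte gap junctions, lies on chr10:56377330-56402513 (plus strand). Its level was 329, 99.2 and 326 CPM in Sham1, the library labelled Sham2 and Sham3. In the TBI group it was 177, 323 and 202 CPM. Sham1, Sham3 and TBI2 formed the upper values, TBI1 and TBI3 lay in between, and the library labelled Sham2 was 3.30-fold below the mean of Sham1 and Sham3. The SD within groups of Gja1 was at the 83.3rd percentile of all tested genes and was the widest of the 9 genes. The log2 fold change was -0.11 (SE 0.47, 95% interval -1.22 to 1.01), and it was 0.14 without Sham1, 0.11 without Sham3 and 0.059 without TBI1. Without the library labelled Sham2 it was -0.49 (95% interval -1.15 to 0.17) with an unadjusted p of 0.120 in edgeR's test, and every TBI library lay below both sham libraries that were left. Such a lack of overlap, with only 2 sham libraries, was found in 20.5% of all tested genes.

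Gjb6 encodes a further connexin of astrocytes, found mainly in mature cells (chr14:57123303-57133611, minus strand). It stood at 46.2, 39.7 and 79.4 CPM in Sham1, the library labelled Sham2 and Sham3, and at 36.2, 94.1 and 95.6 CPM in TBI1, TBI2 and TBI3. TBI2 and TBI3 were the highest and TBI1 was the lowest, so both ends of the range were TBI libraries. Its log2 fold change was 0.45 (SE 0.43, 95% interval -0.57 to 1.47), and it was 0.26 without the library labelled Sham2. Single libraries moved it: it was 0.80 without Sham3, and without TBI1, in which striatum markers were high, it was 0.78, with an unadjusted p of 0.0440 and an adjusted p of 0.906 in edgeR's quasi-likelihood test. The connexins did not keep a fixed proportion. There were 7.13, 2.50 and 4.11 counts of Gja1 per count of Gjb6 in the sham group and 4.90, 3.43 and 2.11 in the TBI group, in the order of the library numbers.

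Glul encodes glutamine synthetase, which in brain is mostly an astrocyte enzyme (chr1:153899944-153909723, plus strand). Its level was 2139, 877 and 2198 CPM in Sham1, the library labelled Sham2 and Sham3, and 1508, 2227 and 2131 CPM in TBI1, TBI2 and TBI3. Apart from TBI1 and the library labelled Sham2, the other 4 libraries lay within 2131 to 2227 CPM. The library labelled Sham2 was 2.47-fold below the mean of Sham1 and Sham3. The log2 fold change was 0.17 (SE 0.36, 95% interval -0.68 to 1.02) and turned to -0.15 (95% interval -0.61 to 0.31) without that library. It was 0.36 without Sham3 and 0.33 without TBI1.

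A microRNA gene, Mir8114, shares 93 exonic bases with Glul on the same strand, which is 2.8% of the exonic bases of Glul. The mature microRNA lies on chr1:153899989-153900009 within the first exon of Glul (GRCm38.p6, plus strand) and is shown because reads from these bases could be given to either gene. Capitals mark the seed, bases 2 to 8, as held in RefSeq.
mmu-miR-8114: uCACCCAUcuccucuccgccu
The deposited counts of Mir8114 were 1325 in Sham3 and 1287 in TBI3 but only 2 to 5 in the other 4 libraries. In those 2 libraries Glul itself had 84363 and 75836 counts, so the values of Mir8114 were small beside it. Teddm2, on the opposite strand, shares 116 exonic bases with Glul and had 77 to 130 counts. Aldh1l1 shares 499 exonic bases (11%) with the antisense gene Gm15756, which had 7 to 18 counts, and 105 with Gm45901, which had at most 1. Whether strand was used in counting is not given in the sources used here, so reads from these shared bases cannot be assigned with certainty.

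Aldoc, an aldolase of glycolysis that marks astrocytes in brain, lies on chr11:78322968-78327781 (plus strand). Its level was 1037, 563 and 1032 CPM in Sham1, the library labelled Sham2 and Sham3, and 878, 1097 and 1454 CPM in the TBI libraries in order. TBI2 and TBI3 were the highest, TBI1 was below Sham1 and Sham3, and the library labelled Sham2 was 1.84-fold below the mean of those 2 sham libraries. Aldoc had a log2 fold change of 0.38 (SE 0.29, 95% interval -0.31 to 1.07), and 0.14 without the library labelled Sham2. Without TBI3, its highest library and the one with cerebellum markers, it was 0.16, and without TBI1 it was 0.54.

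Aldh1l1, a folate enzyme widely used to mark astrocytes, lies on chr6:90486427-90600203 (plus strand). It stood at 67.5, 84.9 and 63.8 CPM in Sham1, the library labelled Sham2 and Sham3, and at 108, 82.7 and 84.1 CPM in the TBI group. The library labelled Sham2 lay just above TBI2 and TBI3, and the other 2 sham libraries were the lowest of the 6. The sham mean was 72.1 ± 11.3 CPM and the TBI mean 91.5 ± 14.1 CPM (SD, n = 3 each). This gave a log2 fold change of 0.34 (SE 0.17, 95% interval -0.056 to 0.75), with an unadjusted p of 0.0813, the smallest of the 9 genes, and an adjusted p of 0.982 in edgeR's quasi-likelihood test. Without TBI1, its highest library and the one with striatum markers, it was 0.21 with an unadjusted p of 0.233 in edgeR's test. Without the library labelled Sham2 it was 0.48 (95% interval 0.077 to 0.88). Its unadjusted p was then 0.0271 and its adjusted p 0.997 in edgeR's quasi-likelihood test, and the groups no longer overlapped. It was the only 1 of the 9 genes with an unadjusted p under 0.05 without that library. Of all tested genes 3.39% had such a p, 1.91% with a higher level in TBI, and the groups did not overlap in 20.5%. Aldh1l1 was thus higher in each TBI library than in Sham1 and Sham3, by an amount that did not pass the adjustment over all genes.

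Slc4a4, a cotransporter of sodium and bicarbonate that helps astrocytes to control pH, lies on chr5:88886818-89239653 (plus strand). Its level was 258, 102 and 242 CPM in Sham1, the library labelled Sham2 and Sham3, and 264, 230.2 and 401 CPM in TBI1, TBI2 and TBI3. The library labelled Sham2 was far below the other libraries and TBI3 far above, while the other 4 lay between 230.2 and 264 CPM. Slc4a4 had the widest range of the 9 genes, with the highest library 3.92 times the lowest. Its log2 fold change, the largest of the 9 in the positive direction, was 0.57 (SE 0.38, 95% interval -0.33 to 1.48). It was 0.26 without the library labelled Sham2, 0.29 without TBI3, and -0.013 without both.

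Sox9, a transcription factor that sets astrocyte fate and stays on in adult astrocytes, lies on chr11:112782224-112787760 (plus strand). It stood at 45.5, 75.4 and 31.4 CPM in Sham1, the library labelled Sham2 and Sham3, and at 51.8, 30.7 and 20.8 CPM in TBI1, TBI2 and TBI3. The highest value was in the library labelled Sham2 and the lowest in TBI3, and TBI1 lay above Sham1 and Sham3. Its log2 fold change was -0.56 (SE 0.42, 95% interval -1.58 to 0.45), the lowest of the 9. It was -0.16 without the library labelled Sham2, -0.30 without TBI3 and -0.98 without TBI1.

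**Figure D2:**
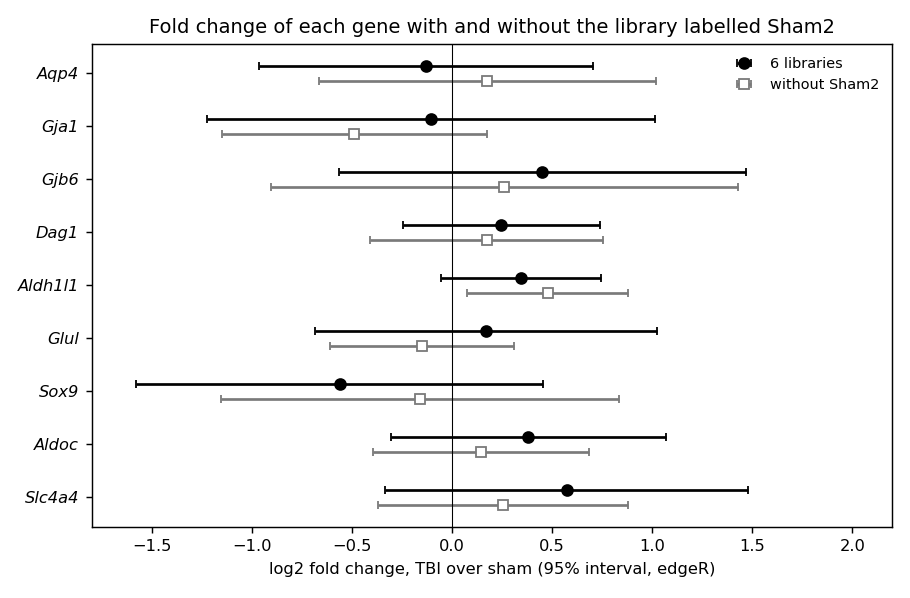
The log2 fold change of TBI over sham for each gene on the horizontal axis, with its 95% interval from edgeR, from all 6 libraries (filled circles) and without the library labelled Sham2 (open squares). With 6 libraries every interval spans 0, and without that library only that of Aldh1l1, 0.077 to 0.88, does not.

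Both groups were spread: in CPM the SD was larger in TBI than in sham for Aqp4, Gjb6, Dag1, Aldh1l1, Aldoc and Slc4a4 and smaller for Gja1, Glul and Sox9. The library labelled Sham2 had the lowest value of the 6 for Gja1, Glul, Aldoc and Slc4a4 and the highest for Aqp4 and Sox9, so it was at an end for 6 of 9 genes. Among all tested genes it was at an end for 46.6%, lowest for 23% and highest for 23.7%. Relative to the mean of Sham1 and Sham3 it held 0.303 times the Gja1, 0.404 times the Glul, 0.410 times the Slc4a4 and 0.544 times the Aldoc. For Aqp4 the same ratio was 1.71 and for Sox9 it was 1.96, so genes usually named together as resting astrocyte genes lay on opposite sides in the same RNA. Gjb6 (0.632) and Dag1 (0.852) were on the low side and Aldh1l1 (1.29) on the high side, but within the range of the other 5 libraries. The ratio of Glul to Aqp4 counts was 2.19 in the library labelled Sham2 and 5.59 to 10.1 in the others, and that of Gja1 to Aqp4 was 0.247 against 0.529 to 1.56.

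These values stood beside those of the reactive genes. Gfap, the filament protein of reactive astrocytes, was 623, 4055 and 632 CPM in the sham libraries in order and 1478, 1239.8 and 541 CPM in the TBI libraries, and it was highest in the library labelled Sham2. Counts of Gfap per count of Gja1 were 1.89, 40.9 and 1.94 in the sham group and 8.34, 3.84 and 2.68 in the TBI group. Serpina3n, a protease inhibitor, was 11.1 times and the small heat shock protein Hspb1 22.6 times the mean of Sham1 and Sham3 in that library. The median log2 fold change of the 20 reactive genes was -0.73 with all libraries and 1.10 without the library labelled Sham2 (0.53 when TBI1 was left out as well), and the count at an unadjusted p under 0.05 turned with it. With all libraries it was 0 of 20, against 4.29% of all tested genes. Without that library 7 of 20 were higher in TBI at such a p, against 1.91% of all tested genes. That library was set apart by these same genes, so leaving it out lowers their sham level by construction. The count without it is therefore only a description. With any other single library left out, the median of the 20 genes stayed negative, between -1.32 (without TBI1) and -0.58 (without TBI3). Of these 20 genes 0 were called in either fit, and the smallest adjusted p without that library was 0.997 in edgeR's quasi-likelihood test. The 22 other resting astrocyte genes followed the low side: 17 had their lowest value in the library labelled Sham2 and 4 their highest. Slc6a11, a GABA transporter of astrocytes, was 0.260 times the mean of Sham1 and Sham3 there, Ndrg2 was 0.481 times and Apoe, the lipid carrier, 0.677 times it. Clu, an abundant secreted chaperone of the same list, was on the other side at 1.15 times. Markers of oligodendrocytes were also lowest in that library, summing to 3059 CPM against 8965 to 11018 CPM, so its low values were not limited to astrocyte genes. Neuron markers there summed to 6908 CPM, between the TBI libraries and the other 2 sham libraries. The part of a different make-up of the tissue in these values was not tested.

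**Figure D3:**
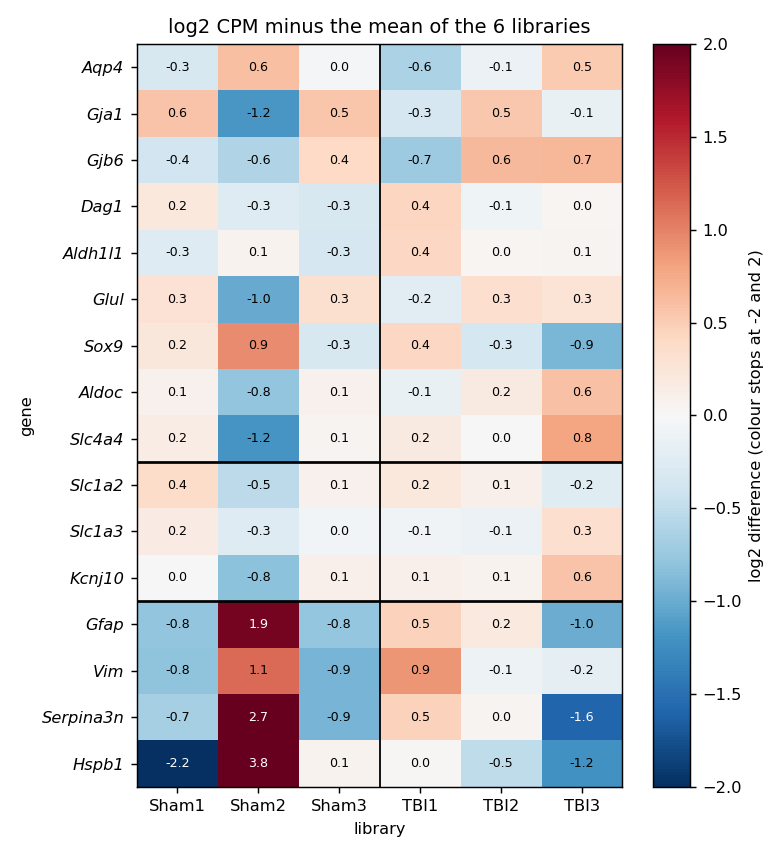
Log2 CPM of each gene (rows) in each library (columns) minus the mean of that gene over the 6 libraries, in colour and as printed values, with the colour stopped at -2 and 2. From the top, the blocks are the 9 genes, 3 other resting astrocyte genes (Slc1a2, Slc1a3 and Kcnj10) and 4 reactive genes. In the column of the library labelled Sham2, Gja1, Glul, Aldoc and Slc4a4 are blue, Aqp4 and Sox9 are red and all 4 reactive genes are red.

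To see whether a gene moved apart from its companions within a library, each was compared with the mean log2 CPM of the other 8. For Aqp4 this difference was 0.041, 1.57 and 0.38 in the sham libraries in order and -0.16, 0.20 and 0.83 in the TBI libraries. For Sox9 it was -2.45, -1.14 and -3.03 in sham and -2.09, -3.17 and -3.89 in TBI. In both the library labelled Sham2 was the highest, and for all 9 genes the groups overlapped on this scale as well.

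Levels were compared between genes only per length, as counts per kilobase of annotated exon, scaled to the same total in each library (as in TPM). Glul was the highest in sham at 1662 ± 684, followed by Aldoc at 856 ± 246, Aqp4 at 150.3 ± 56.6 and Gja1 at 77.8 ± 39.6 (SD, n = 3). The order of Glul, Aldoc, Aqp4 and Gja1 was the same in all 6 libraries. Below these came Gjb6 at 66.0 ± 25.5, Slc4a4 at 58.9 ± 23.8, Aldh1l1 at 51.3 ± 9.61, Dag1 at 47.8 ± 8.69 and Sox9 at 39.6 ± 18.7. These neighbours did not differ beyond their spread: Gja1 was above Gjb6 in 3 of 6 libraries, Gjb6 above Slc4a4 in 3, and each further gene above the next in 5. The place of Gja1 rested on the length used, since with the longest transcript in place of all exons its level in sham was 163 against 147 for Aqp4.

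**Figure D4:**
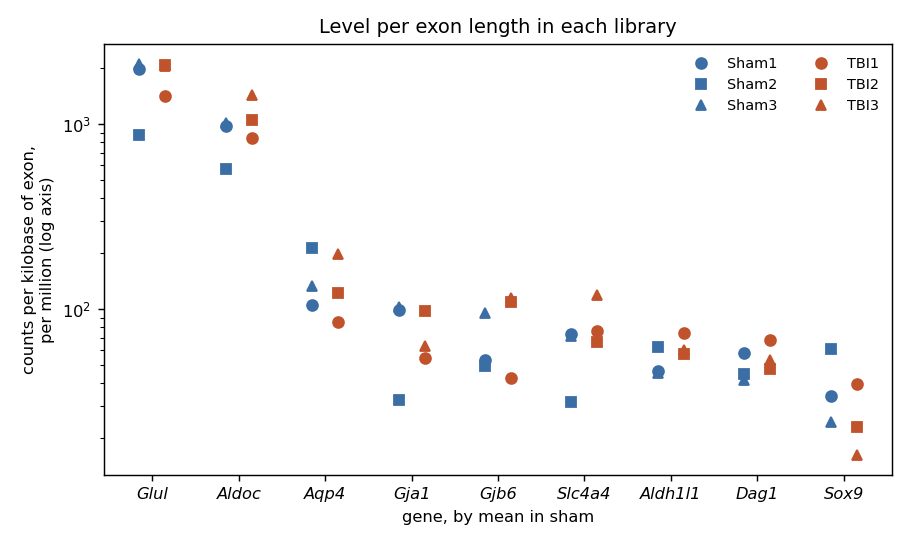
Level of the 9 genes per length in each library, in counts per kilobase of exon scaled to an equal total (TPM) on a log axis, with genes ordered by their mean in sham. Glul and Aldoc stand above the other 7 genes in every library, and the lower 6 overlap.

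Genes that work with the 9 were read from lists by function, and 0 genes of any list were called. Among 21 endfoot partners of Aqp4 and Dag1, 14 had a positive log2 fold change and 7 a negative one, with a median of 0.14, and 0.067 without the library labelled Sham2, in which 11 of the 21 were lowest. The groups did not overlap for 5 of them, against 10.2% of all tested genes, and among the 5 was Atp1b2, a sodium pump subunit of glia, at 372, 412 and 424 CPM in sham and 452, 462 and 656 CPM in TBI. Atp1b2 was thus higher in each TBI library than in each sham library, with a log2 fold change of 0.38 (SE 0.17) and an adjusted p of 0.982 in edgeR's quasi-likelihood test. Kcnj10, the potassium channel of the endfoot, had a log2 fold change of 0.45 (SE 0.27) with overlapping groups.

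Of the 10 other aquaporins only 3 were expressed enough to be tested, and all 3 had negative values without passing the test. Their median log2 fold change was -0.31, and -0.35 without the library labelled Sham2, but 0.13 without TBI1. Aqp1, a water channel of the choroid plexus, was 9.65, 3.24 and 10.9 CPM in sham and 1.57, 10.7 and 1.46 CPM in TBI. Its low libraries were those with little choroid plexus signal: the summed level of the 6 choroid plexus markers was 2018, 50.1 and 2065 CPM in sham and 239, 2348 and 258 CPM in TBI. Of the other 21 connexins and pannexins 13 were tested, with 5 positive and 8 negative values and a median of -0.10. It was -0.23 without the library labelled Sham2 and 0.11 without Sham3. Gjc3, a connexin of oligodendrocytes, was lowest in the library labelled Sham2, at 0.180 times the mean of Sham1 and Sham3.

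Of 16 genes of glutamate and glutamine handling, 12 had positive and 4 negative values with a median of 0.097, and 0.026 without the library labelled Sham2. Slc1a2, the main glutamate transporter of astrocytes, was 3751, 2013 and 3091 CPM in sham and 3383, 3109.7 and 2470.4 CPM in TBI, with the groups overlapping and a log2 fold change of 0.017 (SE 0.24). Slc1a3, the second such transporter, had a log2 fold change of 0.095 (SE 0.17). Of 13 genes of glycolysis, folate and glycogen, 5 had positive and 8 negative values, with a median of -0.075 (0.00068 without the library labelled Sham2 and -0.22 without Sham1). Here Ldha, a lactate dehydrogenase subunit, was highest in the library labelled Sham2, at 1.97 times the mean of Sham1 and Sham3, whereas Ldhb, the other subunit, was lowest at 0.584 times.

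Of 13 genes of bicarbonate and pH control, 8 had positive and 5 negative values, with a median of 0.14, and 0.066 without the library labelled Sham2. Among them Slc4a7, a sodium and bicarbonate cotransporter related to Slc4a4, had an unadjusted p of 0.00667 and an adjusted p of 0.982 in edgeR's quasi-likelihood test. It was 37.6, 36.1 and 31.9 CPM in sham and 22.5, 26.3 and 24.4 CPM in TBI, so every TBI library lay below every sham library, with a log2 fold change of -0.53 (SE 0.14). Slc4a7 was the only 1 of the 13 at an unadjusted p under 0.05 and the only 1 without overlap. Of all tested genes 4.29% had such a p, and the groups did not overlap in 10.2%. Slc4a10 and Car2, a transporter and a carbonic anhydrase, had overlapping groups. Of 15 astrocyte transcription factors 6 had positive and 9 negative values, with a median of -0.15 (-0.12 without the library labelled Sham2 and 0.097 without Sham1). Emx2 was the only one at an unadjusted p under 0.05, a level that 4.29% of all tested genes reached. Its log2 fold change was -0.64 (SE 0.27), its groups overlapped and its adjusted p was 0.982 in edgeR's quasi-likelihood test. Among the other 22 resting astrocyte genes, 16 had positive and 6 negative values. Fgfr3, a growth factor receptor, was 109, 86.8 and 86.0 CPM in sham and 134, 107 and 143 CPM in TBI, a log2 fold change of 0.44 with an unadjusted p of 0.0305 and an adjusted p of 0.982 in edgeR's quasi-likelihood test. Sham1 lay above TBI2, and Fgfr3 was the only 1 of the 22 at such a p. Without the library labelled Sham2, 0 of the 22 were higher and 1 lower at such a p. In that fit 1.91% of all tested genes were higher at such a p, and 3.39% in either direction. The list's median was 0.26 with all libraries and 0.052 without the library labelled Sham2.

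**Figure D5:**
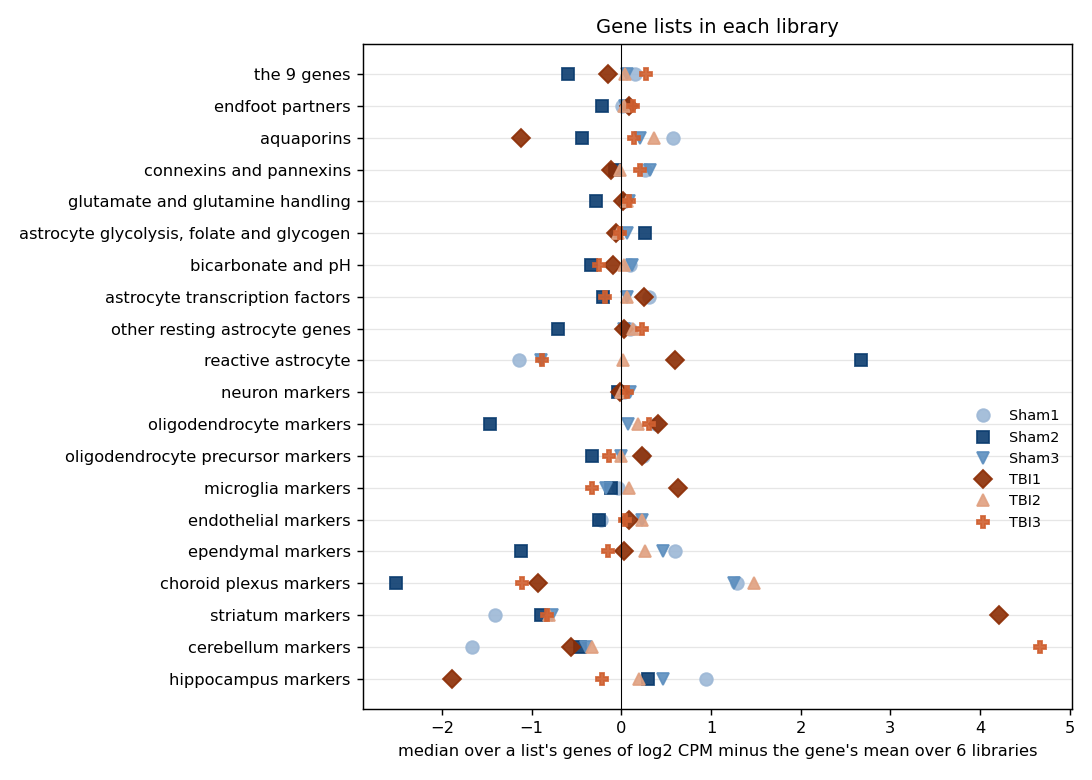
For each gene list (rows), the horizontal axis gives the difference of log2 CPM from each gene's mean over the 6 libraries, as the median of the list, with 1 symbol per library. The library labelled Sham2 is at 2.67 for reactive astrocyte genes and -0.60 for the 9 genes, TBI1 is at 4.21 for striatum markers and TBI3 at 4.67 for cerebellum markers.

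The 5 genes whose log2 CPM over the 6 libraries was most like that of Aqp4 were Slc45a1, Sel1l3, Vdac2, Hspa14 and Gm15027, with Pearson correlations of 0.984 to 0.990 and a Spearman rho of 0.943 for each. Slc45a1 was 39.6, 51.2 and 42.4 CPM in sham and 36.4, 43.1 and 48.5 CPM in TBI, so it followed the order of Aqp4 nearly but over a smaller range. Of 18794 genes, 40 had a correlation above 0.95. The correlations are over only 6 libraries, in each of which both genes were measured in the same RNA, and they only describe the pattern.

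Promoter sequences, the 250 bases before the start site in RefSeq (GRCm38.p6), were held for 7 of the 9 genes, not for Aqp4 and Sox9. Those of Gja1 and Glul are shown because these genes had the lowest ratios in the library labelled Sham2. Letters for 5 motifs were searched on both strands and no match overlapped another: TTGGCA of NFI factors, AACAAT of SOX factors, TTCNNNGAA of STAT factors, the TATA box TATAAA and the GC box GGGCGG. Capitals mark a match.
Gja1 promoter, chr10:56377050-56377299, plus strand: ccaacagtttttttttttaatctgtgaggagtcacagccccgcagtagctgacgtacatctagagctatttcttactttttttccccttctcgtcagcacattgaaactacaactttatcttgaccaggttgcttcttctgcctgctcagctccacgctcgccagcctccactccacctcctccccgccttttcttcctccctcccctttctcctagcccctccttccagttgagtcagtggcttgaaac
Glul promoter, chr1:153899679-153899928, plus strand: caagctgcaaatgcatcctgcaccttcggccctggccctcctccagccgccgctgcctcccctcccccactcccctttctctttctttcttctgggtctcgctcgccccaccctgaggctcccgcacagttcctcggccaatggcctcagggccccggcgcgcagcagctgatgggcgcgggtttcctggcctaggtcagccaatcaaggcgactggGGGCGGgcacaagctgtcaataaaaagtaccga
The Gja1 window held none of the 5 motifs and had 50% G and C, whereas that of Glul held 1 GC box and had 64.8%. The GC box was found in 5 of the 7 promoters, all but those of Gja1 and Gjb6, and in 32.7% of 32851 promoters. TTGGCA was found in 1 of 7, that of Aldoc, and in 12.3% of all promoters. AACAAT, TTCNNNGAA and TATAAA were in none of the 7 and in 9.42%, 7.02% and 12.4% of all promoters. A match is only a match of letters.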

How the data were processed

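RNA-seq libraries of hippocampus from 3 sham and 3 TBI mice were grouped by their labels. The authors used FastQC for quality control, HISAT2 for alignment (GRCm38) and StringTie for quantification. They deposited estimated counts for each gene as whole numbers, not normalized. Versions of these tools, the annotation release and the strand setting are not given in the sources used here. Low values piled up at multiples of 4 (the value 4 occurred 5109 times and 3 occurred 2325 times), so a count is not 1 read and no counting interval is given. Totals were 31630936 to 41771872 per library, and counts of mitochondrial genes were 0.

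Of 52550 identifiers 52403 were matched to a symbol by GENCODE release M21 and 147 were not. Genes were filtered with filterByExpr, scaled by TMM (factors 0.970 to 1.02) and tested with the quasi-likelihood test of edgeR 4.0.16 in R 4.3.3, with Benjamini-Hochberg adjustment over 18795 genes. DESeq2 1.42.0 was an alternative. The thresholds of the study were used for calls: unadjusted p below 0.05, adjusted p below 0.1 and more than 1.5-fold in either direction. The scripts were tested on simulated data. Each standard error was the log2 fold change over the root of F. Per-length levels used the union of exons.

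The text names the 9 genes, in each list at most the 4 most abundant genes and those at an unadjusted p under 0.05 where these were fewer than 6, the 5 genes most like Aqp4 and genes with overlapping exons. Fewer were printed than the rule allows, and some results are not reported here. The members and lists were chosen with earlier results of these data known, and the promoter motifs after values were seen. Aldoa stood on 2 identifiers and was left out of its list. Other settings were scaling, filters, thresholds, robust dispersions, counts divided by 4, each library left out and the replicate number as a block. Leaving out 2 libraries together was chosen after seeing the data.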

Additional observations from a re-analysis of the deposited data

How the results depend on the processing

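None of the 9 genes was called under any setting run. Across all genes, the count of calls was 0 in the fit reported and 46 with the defaults of DESeq2, 43 with DESeq2 on the same filtered genes, 0 to 1 with each library left out (1 without TBI1) and 3 without the library labelled Sham2 and TBI1; the cause was not tested. Over 18 settings, 6 of 9 genes changed the sign of their log2 fold change in at least 1. With single libraries left out, Aqp4 ranged from -0.49 to 0.18, Gja1 from -0.49 to 0.14 and Glul from -0.15 to 0.36. Gja1 was 0.14 without Sham1, 0.11 without Sham3 and 0.059 without TBI1. Aqp4 was 0.18 without the library labelled Sham2, 0.11 without TBI1 and 0.41 without both. Glul was -0.15 without the library labelled Sham2. Without that library and TBI3, Glul was -0.21, Sox9 0.10, Aldoc -0.065 and Slc4a4 -0.013. Gjb6, Dag1 and Aldh1l1 kept a positive sign in the 18 settings, between 0.0034 and 0.80. Of 19 list medians 14 changed sign in at least 1 setting.

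No pairing by replicate number was seen: same-numbered libraries deviated from their group means with correlations of -0.10 to 0.15. Pairs with different numbers had correlations of -0.18 to 0.21. With 3 libraries a group, this check cannot exclude a pairing. With the number as a block, 0 genes were called and Slc4a4 had a log2 fold change of 0.64 with an unadjusted p of 0.0501 in edgeR's test. With 3 libraries a group, the 95% intervals of the 9 genes had a median width of 1.71 on the log2 scale.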
